A study of Caenorhabditis elegans with 2 samples.

Results

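The 61 chaperone and heat shock protein genes described here are the protein-coding genes of Caenorhabditis elegans whose symbol begins with hsp-, dnj- or cct-, together with hsf-1 and sip-1, out of 19973 nuclear protein-coding genes in the Ensembl WBcel235 annotation. They comprise 6 genes of the Hsp70 and Hsp110 family, 2 of the Hsp90 family, 1 Hsp60 gene, 8 subunits of the CCT chaperonin, 29 J-domain proteins, 14 small heat shock proteins and the transcription factor gene hsf-1. Where NHR-11, a nuclear hormone receptor, sits on DNA at these genes was read from ChIP-seq peak lists. In this assay chromatin fragments carrying a protein are recovered with an antibody and sequenced, and regions where fragments pile up above a control are called as peaks.

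All samples belonged to 1 group of 2 biological replicates. Both came from whole second-stage (L2) larvae, males and females together, of strain OP305. That strain carries the unc-119(ed3) mutation on chromosome III and the transgene wgIs305, which supplies NHR-11 fused to eGFP. Fragments were 150 to 350 bp long, and the labels give no stress, drug or other treatment. The receptor was therefore measured as a tagged protein from a transgene and in all tissues at once, and the lists contain no untagged strain and no other factor to set beside it. Tissues in which a gene is used cannot be told apart.

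There were 4 lists, and each peak carries a signal value assigned by the authors' peak caller, with a scaling that the sources used here do not state. The series-level list, called on both replicates together, held 13299 peaks with signals from 8.36 to 448 and a median of 10.6. The thresholded list held the 280 peaks that the authors kept after the irreproducible discovery rate (IDR) procedure, the lowest with a signal of 27.4. Replicate 1 alone had 25831 peaks (median signal 5.63) and replicate 2 alone had 27015 (median 4.15). The replicate lists share no scale, so signals were ranked only within a list, with rank 1 the highest. The lists give no read counts, so depth is unknown for both replicates. A gene is said to have a peak when the summit fell between 1000 bp upstream and 500 bp downstream of any of its annotated transcript 5′ ends, which states a position and nothing about regulation.

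Chaperones bind unfolded or partly folded proteins, keep them from aggregating and help them reach their folded form. Hsp70 proteins do this in cycles of ATP hydrolysis that J-domain proteins start and Hsp110 proteins reset, Hsp90 acts late on signalling proteins, and the ring-shaped CCT and Hsp60 chaperonins enclose their clients. Small heat shock proteins hold unfolded proteins without using ATP. Some members are made at all times, while others rise when the transcription factor HSF-1 binds heat shock elements, which are inverted repeats of the unit GAA, or when the endoplasmic reticulum or the mitochondria send an unfolded protein signal.

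The sequences at which the results turn are given first, read from the RefSeq WBcel235 genome (ce11) in lower case, with capitals for GAANNTTC and TTCNNGAA, the paired units of a heat shock element, each of which is its own reverse complement. The first holds the summit of the strongest peak in the promoter window of any member, in front of hsp-1 (chrIV:17278490-17278690, plus strand). The second is the promoter that follows it, 250 bases before to 50 bases after the hsp-1 5′ end (chrIV:17278709-17279008, plus strand), shown because the full heat shock element of hsp-1 lies there and not at the summit. The third is the summit between cct-1 and mig-5 (chrII:8185104-8185304, plus strand).
hsp-1 peak: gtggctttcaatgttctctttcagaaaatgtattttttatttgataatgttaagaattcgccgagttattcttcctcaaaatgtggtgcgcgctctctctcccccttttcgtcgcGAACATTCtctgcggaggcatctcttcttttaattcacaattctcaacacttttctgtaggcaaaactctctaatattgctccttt
hsp-1 promoter: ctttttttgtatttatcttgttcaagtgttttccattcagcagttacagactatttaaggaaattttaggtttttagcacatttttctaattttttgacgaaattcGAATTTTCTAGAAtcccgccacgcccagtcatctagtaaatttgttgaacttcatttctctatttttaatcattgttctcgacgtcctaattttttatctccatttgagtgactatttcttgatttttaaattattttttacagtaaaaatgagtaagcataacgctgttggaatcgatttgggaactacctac
cct-1 peak: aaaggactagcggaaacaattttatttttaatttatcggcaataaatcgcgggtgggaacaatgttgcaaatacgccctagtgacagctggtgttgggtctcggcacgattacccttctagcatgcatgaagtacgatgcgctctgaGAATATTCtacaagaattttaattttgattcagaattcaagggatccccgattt

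A further set shows members with a heat shock element at or beside the summit, and a near copy without a series-level peak. Of the stretches of 50 bases in the windows of that copy, 2.82% (hsp-16.1) and 0% (hsp-16.48) were unique in the genome. A missing peak there does not show absence. The hsp-60 summit (chrIII:1619030-1619130, plus strand) holds GAAGCTTCGAGAA, 3 alternating units in a row. The stretch between hsp-16.2 and hsp-16.41, whose 5′ ends face away from each other 220 bp apart, is given with 20 bases past each end (chrV:1804938-1805197, plus strand). The series-level summit there, chrV:1805205, lies just past the printed bases. The matching stretch between hsp-16.1 and hsp-16.48, with 5′ ends 348 bp apart, is given as its middle 300 bases (chrV:9087807-9088106, plus strand). Both of these hold the same element, TTCTAGAACATTC, in 2 places.
hsp-60 peak: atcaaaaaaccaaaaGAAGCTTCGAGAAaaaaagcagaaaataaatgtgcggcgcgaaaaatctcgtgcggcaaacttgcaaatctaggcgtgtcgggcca
hsp-16.2 and hsp-16.41: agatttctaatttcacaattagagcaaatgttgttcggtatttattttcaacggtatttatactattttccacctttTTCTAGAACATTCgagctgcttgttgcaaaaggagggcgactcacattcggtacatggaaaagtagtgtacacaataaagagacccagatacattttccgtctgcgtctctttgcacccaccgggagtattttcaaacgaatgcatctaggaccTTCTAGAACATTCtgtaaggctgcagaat
hsp-16.1 and hsp-16.48: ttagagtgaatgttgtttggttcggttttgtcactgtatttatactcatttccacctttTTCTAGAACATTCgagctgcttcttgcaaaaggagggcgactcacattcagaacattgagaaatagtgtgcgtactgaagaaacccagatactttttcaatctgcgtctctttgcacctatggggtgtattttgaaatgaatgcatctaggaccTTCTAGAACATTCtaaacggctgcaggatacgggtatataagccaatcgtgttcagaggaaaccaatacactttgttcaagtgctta

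Peaks were found at more of the members than at genes in general. In the series-level list 29 of 61 members had a peak (47.5%), where 24.7% of all nuclear protein-coding genes did. Among the 1329 strongest peaks, which are 10% of that list, 12 members had one (19.7%), against 3.81% of all genes. The thresholded list gave 2 members, hsp-1 and cct-1 (3.28%), against 0.801% of all genes. Each replicate list gave 38 members (62.3%), against 40.4% of all genes in replicate 1 and 39.7% in replicate 2, and 29 members had a peak in both (47.5% against 21.4%). No peak in any of the 4 lists was found for 14 members (23%), against 40.8% of all genes. The 29 members with a series-level peak had a median signal of 13.8, and the 4927 genes of any kind with one had a median of 11.1. These are counts beside counts. The members were not drawn at random from the genes, and no test of the difference was made.

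**Figure D1:**
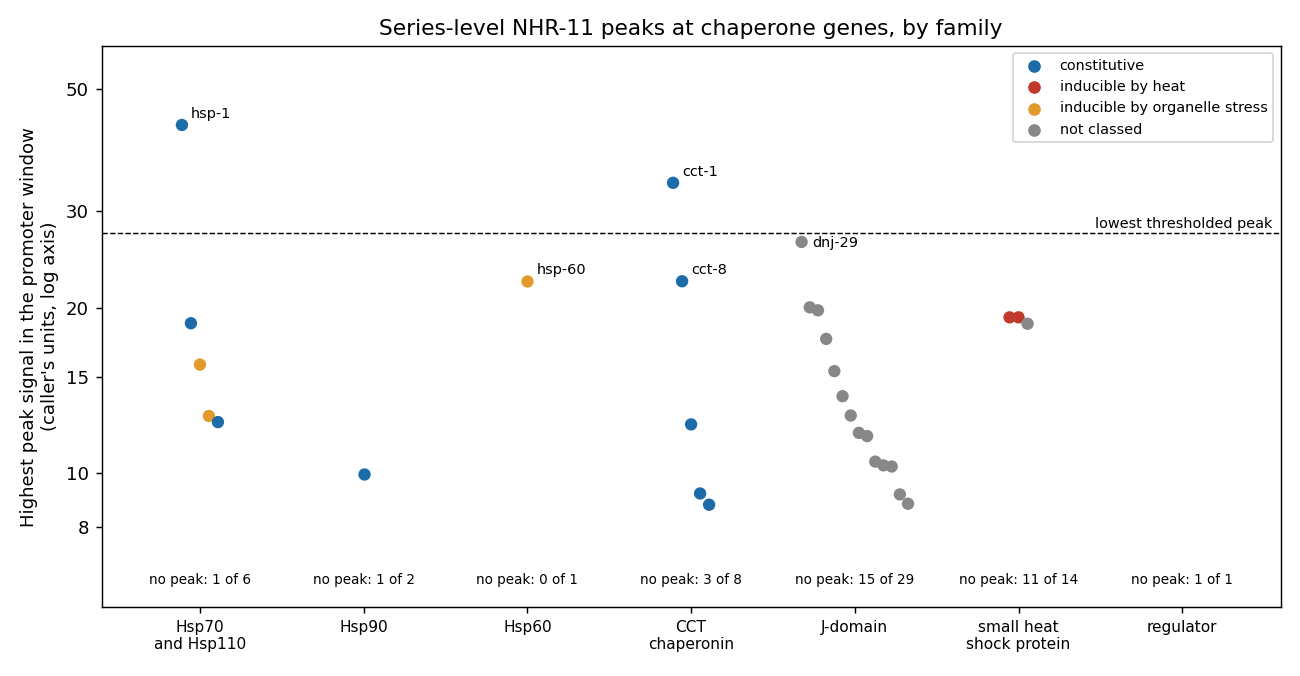
Highest series-level peak signal of each member with a peak (vertical log axis, caller's units), by family, 1 point per gene coloured by class; the line at the bottom gives members without a peak. hsp-1 (43.1) and cct-1 (33.8) lie above the lowest thresholded signal (27.4, dashed), dnj-29 (26.4) just under it, and 15 of 29 J-domain and 11 of 14 small heat shock protein genes had no peak.

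The strength tiers of the series-level list show where the members fell. Its 1000 strongest peaks reached 11 members (18%, against 2.95% of all genes). Its 5000 strongest reached 21 (34.4%, against 11.2%). The 8 members added below that rank were dnj-24, dnj-2, dnj-7, hsp-90, cct-4, dnj-30, dnj-18 and cct-7, with signals from 8.77 to 10.5.

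The Hsp70 and Hsp110 genes had a peak in 5 of 6 cases in each unthresholded list (83.3%). The share of all genes was 24.7% in the series-level list, 40.4% in replicate 1 and 39.7% in replicate 2. hsp-1, which encodes the constitutive cytosolic Hsp70, had the highest series-level signal in the promoter window of all members, 43.1 (rank 73, chrIV:17278375-17278804, summit 369 bp upstream in intergenic sequence). Its peak had a signal of 18.5 in replicate 1 (rank 236) and 28.9 in replicate 2 (rank 34), with summits 3 and 6 bp from the series-level one. Both replicates thus placed a strong peak at the same bases. hsp-110, the nucleotide exchange factor of Hsp70, had a signal of 18.8 at 296 bp upstream (rank 946), 148 bp from the 5′ end of the divergent proteasome gene rpn-3. That peak was strong in replicate 1 (16.6, rank 362), whereas no replicate 2 peak overlapped it and the highest in the window there had a signal of 3.18 (rank 21641).

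The organelle Hsp70 genes had weaker peaks that appeared in both replicates. hsp-6, the mitochondrial Hsp70, had a series-level signal of 15.8 (rank 1692) at 436 bp upstream, with 6.83 in replicate 1 and 7.36 in replicate 2. Its summit was nearer to the divergent gene C37H5.5, at 164 bp. hsp-3 and hsp-4 encode the Hsp70 of the endoplasmic reticulum (BiP). hsp-4 had 12.7 (rank 3583, in a coding exon, 587 bp upstream of an internal 5′ end), with 7.47 and 8.34 in replicates 1 and 2 as the highest in the window. hsp-3 had 12.4 (rank 3892), at 40 bp downstream in the 5′ UTR, with 9.15 and 10.1 likewise. In replicate 1 these highest peaks were not the ones overlapping the series-level peak. The overlapping ones had 7.20 at hsp-4, with its summit 280 bp away, and 5.76 at hsp-3 (rank 12201). The heat-inducible hsp-70 had no peak in any list, and its 5′ end lies inside another gene, uggt-2.

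Among the Hsp90 and Hsp60 genes, hsp-60 stood out by signal. The mitochondrial chaperonin gene hsp-60 had 22.4 (rank 546), with 8.06 in replicate 1 (rank 4552) and 9.91 in replicate 2 (rank 789), and summits 13 and 1 bp from the series-level one. The summit lay 662 bp upstream of hsp-60 and 151 bp upstream of its divergent neighbour Y22D7AL.10. hsp-90, the cytosolic Hsp90, had 9.96 (rank 8082) in an intron, 126 bp upstream of an internal 5′ end. Its values were 8.15 in replicate 1 and 8.16 in replicate 2, at different summits of the window. hsp-75, a mitochondrial Hsp90, had none.

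All 8 CCT subunit genes had a peak in at least 1 replicate, while 8268 of all 19973 genes had one in neither. In the series-level list 5 of the 8 had a peak (62.5%, beside 24.7% of all genes). CCT is the chaperonin that folds actin and tubulin. cct-1 had a signal of 33.8 (rank 147, chrII:8184989-8185418), with 13.002 in replicate 1 (rank 827) and 18.9 in replicate 2 (rank 88). Its summit lay 239 bp upstream of cct-1 and 181 bp upstream of mig-5, a Dishevelled gene of Wnt signalling that starts in the other direction. cct-8 had 22.4 (rank 547), with the highest replicate 1 signal of any member, 19.9 (rank 184), but 3.37 in replicate 2 (rank 19806). The summit was 474 bp upstream of cct-8 and 147 bp from the divergent Y55F3AR.2. cct-5 (12.28), cct-4 (9.19) and cct-7 (8.77) had weaker peaks. cct-2, cct-3 and cct-6 had none in the series-level list, with replicate signals between 3.02 and 6.71. Subunits of 1 complex therefore ranged from the thresholded list to no series-level peak.

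J-domain genes had a series-level peak in 14 of 29 cases (48.3%, beside 24.7% of all genes), a share near that of all members. dnj-29, whose product is related to Sec63 of the endoplasmic reticulum translocon, had 26.4 (rank 315, 121 bp upstream), just under the lowest thresholded signal of 27.4. It reached 19.7 in replicate 1 (rank 196) and 5.30 in replicate 2 (rank 7425), and its window is shared with ndua-2 and fld-1. dnj-20, a J-domain protein of the endoplasmic reticulum, had 20.1 (rank 752) in its own intron, 956 bp upstream of an internal 5′ end. There the window values were 12.5 and 9.56, and a replicate 2 peak of 15.1 (rank 164) overlapped the series-level peak with its summit outside the window. dnj-13, a class B partner of cytosolic Hsp70, had 19.8 (rank 788) at 7 bp downstream, with 16.6 in replicate 1 (rank 357) and 3.05 in replicate 2 (rank 23107). Its 5′ end lies inside dhgd-1, and its window is shared with F54D5.9.

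The next J-domain genes were dnj-12 (17.6), a class A partner of Hsp70, and dnj-14 (15.4), the cysteine string protein of synaptic vesicles. Their summits lay 66 bp from mtx-1 and 3 bp from glit-1, nearer than to dnj-12 (426 bp) and dnj-14 (528 bp). dnj-14 held 11.4 and 10.1 in replicates 1 and 2, the highest replicate 2 value of the family. After these came dnj-5 (13.8), dnj-1 (12.7), dnj-28 (11.9) and dnj-16 (11.7). No peak in any list was found for 7 of the 29 J-domain genes (24.1%, beside 40.8% of all genes). They were dnj-3, dnj-9, dnj-11, dnj-15, dnj-17, dnj-21 and dnj-27. A further 8 had a peak in at least 1 replicate only: dnj-4 and dnj-22 in both, dnj-23 and dnj-25 in replicate 1, and dnj-8, dnj-10, dnj-19 and dnj-26 in replicate 2. The share of all genes with a peak in replicates only was not counted.

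Small heat shock protein genes had a series-level peak in 3 of 14 cases (21.4%), a share near the 24.7% of all genes, and these 3 were in the strongest 10%. hsp-16.2 and hsp-16.41, a divergent pair induced by heat, shared 1 peak of 19.2 (rank 859), 248 bp upstream of hsp-16.2 and 27 bp downstream of the hsp-16.41 5′ end. It had 10.2 in replicate 1 (rank 2000) and 6.50 in replicate 2 (rank 3981). hsp-17 had 18.7 (rank 952) in a coding exon, with 13.7 and 6.42. hsp-43 had a peak in both replicates (5.29 and 3.76) and none in the series-level list. sip-1, a small heat shock protein of the germ line and embryo, had a peak in replicate 2 alone (4.72, rank 10097, 249 bp upstream). hsp-12.3 and hsp-12.6 had one in replicate 1 alone, and hsp-12.1, hsp-12.2 and hsp-25 in no list.

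hsf-1, the gene of the heat shock transcription factor itself, had no series-level peak. Replicate 1 had a signal of 5.57 (rank 13294, 349 bp upstream) and replicate 2 had 7.23 (rank 2772, 769 bp upstream), near annotated 5′ ends but not at the same bases.

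The other hsp-16 genes form a pair of near-identical divergent copies on chromosome V. hsp-16.1 and hsp-16.11 had a peak in replicate 2 alone, of 5.46 (995 bp upstream) and 3.78 (962 bp upstream), and hsp-16.48 and hsp-16.49 had none. How far reads could be told apart there was read from the genome. Of all stretches of 50 bases in the windows, 0% were unique in the genome for hsp-16.48 and hsp-16.49, 2.82% for hsp-16.1 and 5.44% for hsp-16.11. dnj-10 had 89.7%, and the other 56 members had at least 90%, with a median of 100%. None of the 5 members under 90% had a series-level peak. The sources used here state neither the read length nor the treatment of multiply aligned reads, and the part of these repeats in the missing peaks was not tested.

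The share of genes with a peak differed between constitutive and inducible members by less than it varied between replicates. Constitutive members were taken to be hsp-1, hsp-3, hsp-90, hsp-110, hsp-75, hsp-25, hsp-43 and the 8 CCT genes, 15 in all. Inducible ones were the 6 hsp-16 genes and hsp-70, induced by heat, and hsp-4, hsp-6 and hsp-60, induced by organelle stress, 10 in all; the other 36 members were not classed. A series-level peak was found at 9 of 15 constitutive members (60%) and 5 of 10 inducible members (50%), beside 24.7% of all genes. The classes thus differed by 10 percentage points. In replicate 1 the counts were 12 (80%) and 5 (50%), beside 40.4% of all genes. In replicate 2 they were 11 (73.3%) and 7 (70%), beside 39.7%. The difference was thus 30 points in replicate 1 and 3.33 in replicate 2, an SD of 18.9 that exceeds it.

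The direction of that difference depended on the assignment of peaks. It was -10 points when each summit went only to the gene with the nearest 5′ end (20% and 30%), with the stronger part of the list (40% and 50%), and with windows from 2000 bp upstream (60% and 70%). Among the strongest 10% of peaks, 4 constitutive (26.7%) and 3 inducible members (30%) had a peak, beside 3.81% of all genes. The median signal of those with a peak was 12.4 for constitutive and 19.2 for inducible members. The 5 inducible members had 4 distinct peaks, since the hsp-16.2 and hsp-16.41 peak is 1.

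Within the inducible class, peaks were counted by kind of stress. All 3 genes of organelle stress had a peak in the series-level list and in both replicates. Of the 7 heat-inducible genes, 2 did (28.6%, beside 24.7% of all genes in the series-level list), with 1 shared peak. With hsp-4, hsp-6 and hsp-60 counted as constitutive, the shares were 66.7% and 28.6%, a difference of 38.1 points. Of the 5 heat-inducible genes without a series-level peak, 4 are the hsp-16 copies that are largely not unique in the genome. The thresholded list held 2 constitutive and no inducible members in the promoter window, beside 0.801% of all genes.

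**Figure D2:**
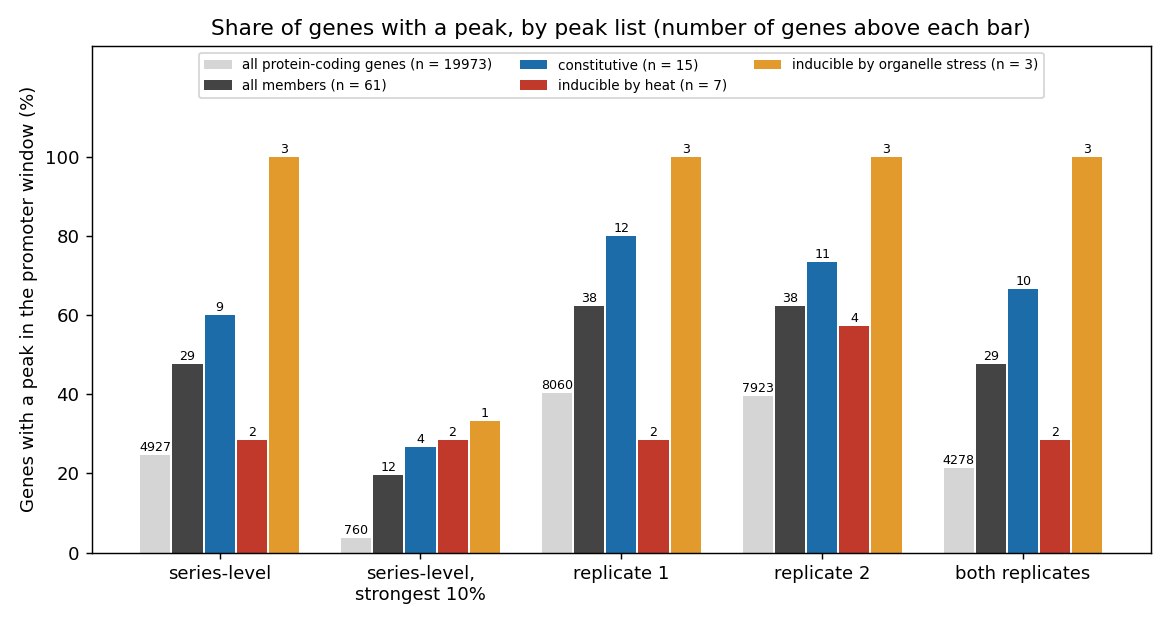
Percent of genes with a peak in the promoter window, in the series-level list, its strongest 10%, each replicate and both replicates, for all protein-coding genes, all members and 3 classes, with the number of genes above each bar. Members lie above all genes in each list (series-level 47.5% against 24.7%), all 3 organelle stress genes had a series-level peak, and 2 of 7 heat-inducible genes did.

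hsp-1 was compared with the rest in each list. In the series-level list its signal was 1.27 times that of cct-1, the next member, and 3.24 times the median of the other 28 members with a peak (13.3). In replicate 2 it was again first, 1.53 times cct-1 and 5.15 times the median of the other 37 (5.61). In replicate 1 it had rank 3 among members, behind cct-8 (19.9) and dnj-29 (19.7), at 0.928 times the value for cct-8 and 2.71 times the median (6.83). hsp-1 is therefore first by replicate 2 and not by replicate 1, and its lead over the next member lies within the spread between replicates (SD 0.428). Among all genes with a peak, hsp-1 ranked 38 of 4927 in the series-level list, 138 of 8060 in replicate 1 and 11 of 7923 in replicate 2.

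The hsp-1 gene carried more than its promoter peak. The wider window used next, the gene and 1000 bp on each side, was chosen after the values were seen. 3 thresholded peaks lay in or within 1000 bp of it, a number reached by 2 of 19973 genes, hsp-1 and mnk-1; 14 genes had 2 such summits and 293 had 1. Besides the promoter peak, 1 was centred in a coding exon 987 bp from the 5′ end (signal 33.0, rank 154). The overlapping peak of replicate 1 (14.7) had its summit at 1120 bp, in an intron, and that of replicate 2 (23.1) at 978 bp. The other thresholded peak lay 49 bp past the 3′ end (signal 42.4, rank 76, chrIV:17281164-17281593; 21.9 in replicate 1 and 22.8 in replicate 2). The thresholded exon summit was 100 bp from the snoRNA gene F26D10.24, which sits in an intron of hsp-1. The replicate 1 summit at 1120 bp lay inside that snoRNA gene. The promoter summit was 88 bp from F26D10.23, annotated as ncRNA. The part of these short genes in the peaks was not tested. The summit past the 3′ end had no short RNA gene closer than 1210 bp.

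**Figure D3:**
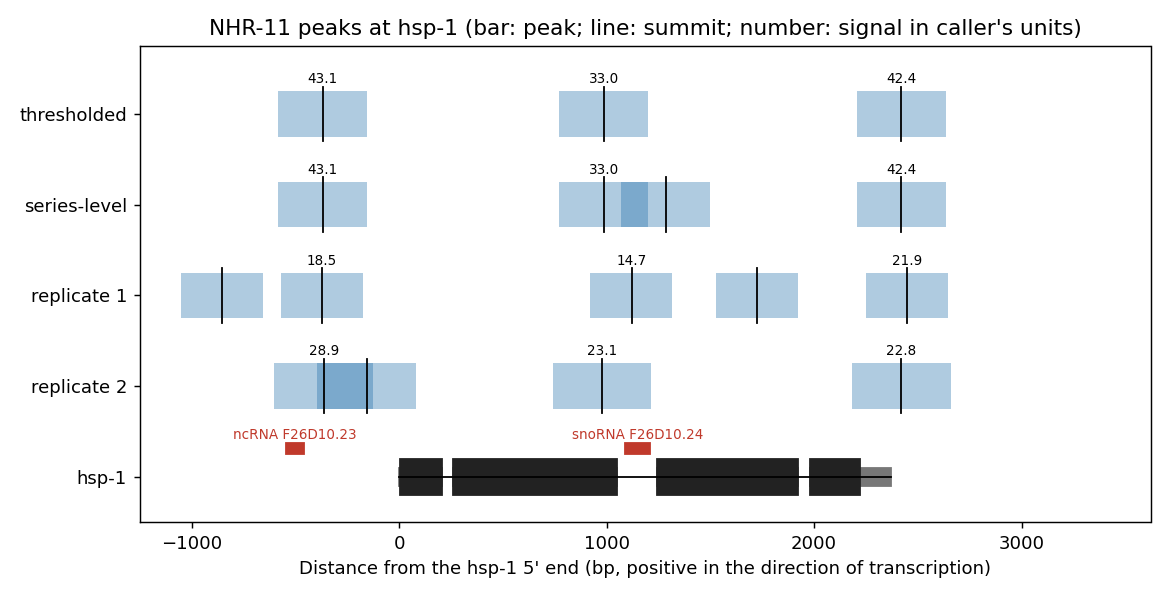
Peaks at hsp-1 in the 4 lists by distance from its 5′ end in bp, with exons (dark, coding; grey, untranslated) and short RNA genes (red); bars are peaks, lines summits, numbers signals over 14 in caller's units. Peaks at the promoter (43.1), in the exon at 987 bp (33.0) and past the 3′ end (42.4) appear in the thresholded and series-level lists. Both replicates have peaks overlapping each, though the replicate 1 summit beside the exon peak lies at 1120 bp, in an intron.

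Strong peaks also lay outside the promoter window at 3 other members. A thresholded summit in the gene or within 1000 bp of it was found for 5 members (8.2%), against 1.55% of all genes, a window chosen after the values were seen. The one at hsp-3 had the highest signal near any member, 45.3 (rank 65, chrX:6088796-6089225), 17 bp past the 3′ end, with 31.3 in replicate 1 (rank 54) and 10.3 in replicate 2 (rank 660). dnj-20 had 1 in an intron (36.3, rank 118, chrII:9621360-9621789) and 1 in its 3′ UTR (29.5, rank 221, chrII:9617335-9617764). In replicates 1 and 2 these had 20.5 and 17.6, and 16.08 and 15.8. hsp-12.3, a small heat shock protein gene, had 1 at 5 bp past its 3′ end (32.9, rank 156, chrIV:9444571-9445000; 15.6 and 15.3), 23 bp from the snRNA gene F38E11.11.

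The stretches past the 3′ ends of hsp-3 (chrX:6088961-6089027, minus strand) and hsp-1 (chrIV:17281331-17281427, plus strand), read in the direction of each gene, hold no GAANNTTC or TTCNNGAA. They are shown because these are the strongest peaks at members beyond the promoters. The hsp-3 stretch is 23.9% G and C, and the hsp-1 stretch 39.2%.
hsp-3 peak past the 3′ end: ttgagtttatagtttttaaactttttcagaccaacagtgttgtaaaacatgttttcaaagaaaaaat
hsp-1 peak past the 3′ end: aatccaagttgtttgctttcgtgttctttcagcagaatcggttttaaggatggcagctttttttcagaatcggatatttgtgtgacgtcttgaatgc

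The replicates placed peaks at overlapping sets of members but ranked them differently. Of the 61 members, 29 had a peak in both, 9 in replicate 1 alone, 9 in replicate 2 alone and 14 in neither. Of the 29 with a series-level peak, 23 had a peak in both replicates (79.3%, against 61.8% of all genes with a series-level peak) and 6 in 1. The highest peaks of both replicates had summits within 200 bp of each other at 15 of 29 members (51.7%, against 41.4% of all genes with both). Across those 29 members the log2 signals gave r = 0.19 and rho = 0.17, a description over genes that are not independent, since they share both libraries and some share peaks. cct-8, dnj-13 and hsp-110 were high in replicate 1 and low in replicate 2, while hsp-1 and cct-1 were high in both.

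**Figure D4:**
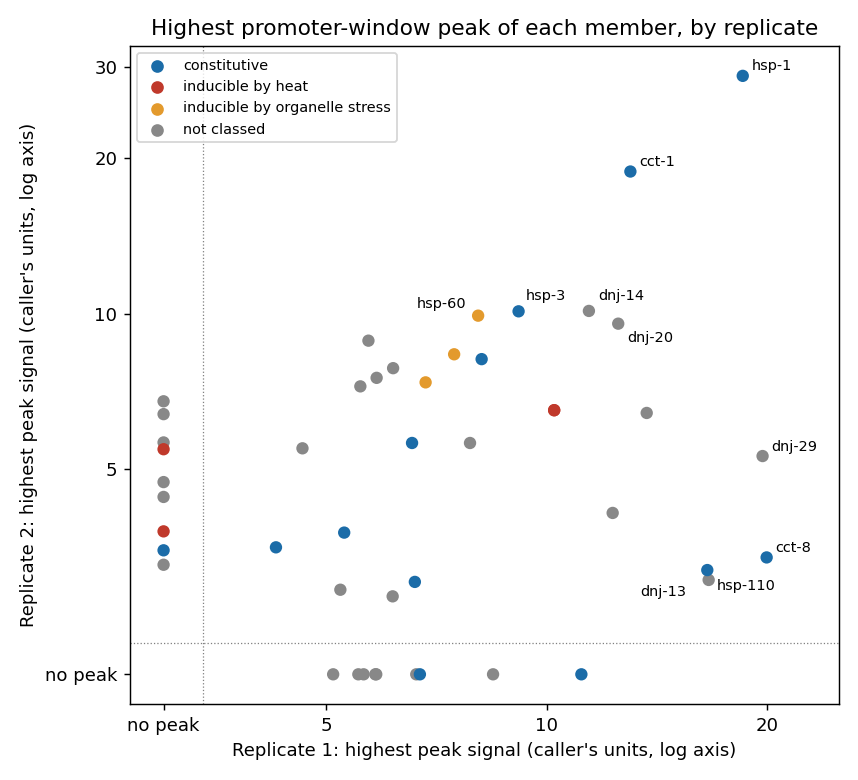
Highest signal in the promoter window in replicate 1 (horizontal) and replicate 2 (vertical), both on log axes in caller's units, 1 point per member with a peak in either (those of hsp-16.2 and hsp-16.41 coincide); points past the dotted lines have no peak in that replicate. hsp-1 (18.5 and 28.9) and cct-1 (13.002 and 18.9) are high in both, and cct-8 (19.9 and 3.37) in replicate 1 alone.

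Many of the peaks lay between 2 genes that start in opposite directions. The strongest series-level peak was upstream of the 5′ end for 24 of the 29 members (82.8%, all genes 74.8%), at a median of 316 bp upstream (all genes 238). By place, 16 summits were intergenic, 5 in introns, 4 in 5′ UTRs and 4 in coding exons. The window of at least 1 other protein-coding gene held the same peak for 17 members (58.6%, all genes 29.3%), and for 12 members another gene's 5′ end was nearer. Of the 12 members in the strongest 10%, 6 had a nearer neighbour: cct-1, hsp-60, cct-8, hsp-16.2, hsp-110 and dnj-12. Whether such a peak belongs to the chaperone gene or to its neighbour cannot be told apart from position.

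Members more often had a close divergent neighbour than genes in general, and those with one more often had a peak. An upstream neighbour on the other strand within 1000 bp was annotated for 28 members (45.9%), against 17.2% of all genes. Of these 28 members 17 had a series-level peak (60.7%), against 31.9% of all genes so arranged. The 28 include the hsp-16 genes, whose close divergent neighbours are each other. The 17 count the 1 peak shared by hsp-16.2 and hsp-16.41 for both genes. Of the 13 members with a tandem neighbour within 1000 bp 4 had one (30.8%), against 23.4% of all such genes. The arrangement moves with the share of members with a peak, and its part was not tested. No member's strongest series-level peak had its summit within 500 bp of a short RNA gene (miRNA, rRNA, snoRNA, snRNA or tRNA), against 4.12% of all genes with a peak. Genes annotated as ncRNA were not counted there, such as F26D10.23, 88 bp from the hsp-1 summit. The bases within 50 bp of member summits had a median of 45.5% G and C, against 37.6% for all genes with a peak.

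Heat shock element letters were more common in the promoters of members than in those of all genes. Shares in promoters and at summits are not set against each other, since the stretches searched differ in length. Each motif was searched on both strands in the 300 bases from 250 before to 50 after the outermost 5′ end of each gene, and in the 50 bases on each side of each summit. The 3-unit element, in which GAANNTTC runs on into NNGAA or, on the other strand, TTCNNGAA into NNTTC, was in 11 of 61 member promoters (18%) and in 1.97% of all. Its holders were hsp-1, hsp-110, hsp-90, dnj-12, hsp-70 and the 6 hsp-16 genes, that is, all 7 heat-inducible members, 3 of 15 constitutive ones and none of the 3 of organelle stress. The 2-unit forms overlap it. GAANNTTC was in 25 member promoters (41%, all genes 18.5%) and TTCNNGAA in 20 (32.8%, all genes 18.9%).

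Among genes at large, those with the element had peaks at a share close to that of all genes. Of the 11 members with the 3-unit element, 6 had a series-level peak, beside 104 of 393 genes of any kind with it (26.5%) and 24.7% of all genes. The 6 include hsp-16.2 and hsp-16.41, which share 1 peak. Those without a peak include the hsp-16 copies that are largely not unique in the genome. At the summits the 3-unit element was in 2 of 28 member windows (7.14%, all peaks 0.738%), that of hsp-60 and that shared by hsp-16.2 and hsp-16.41. At hsp-1 the element lay 138 bp upstream of the 5′ end and 231 bp from the summit, at dnj-12 387 bp from it, and at hsp-110 65 and 187 bp. At hsp-90 the elements were 1125 and 1195 bp from the summit, which lies at another 5′ end. GAANNTTC was in 4 member windows (14.3%, all peaks 6.38%), the 2 with the full element and those of hsp-1 and dnj-14.

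Hexamers of the kind that nuclear receptors bind were found in few member promoters and summits. AGGTCA was in 2 member promoters (3.28%, all genes 8.27%), AGTTCA in 9 (14.8%, all genes 20.4%) and AAGTCA in 6 (9.84%, all genes 13.3%). At the 28 member summits AGGTCA and AAGTCA were in none (all peaks 2.99% and 4.56%) and AGTTCA in 2, those of cct-4 and hsp-90 (7.14%, all peaks 6.18%). TGACGTG, the letters bound by XBP-1 in the endoplasmic reticulum stress response, were in 5 member promoters (8.2%, all genes 2.93%), those of hsp-3, hsp-4, dnj-20, dnj-28 and dnj-29. Of these, dnj-29 also had it at its summit (3.57% of member windows, all peaks 0.965%). CACGTG was in 4 promoters (6.56%, all genes 5.82%) and TGATAA, the letters of GATA factors, in 11 (18%, all genes 30.2%), and neither was at a member summit (all peaks 1.86% and 9.42%). A match of letters is not a bound site.

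Genes that work with the members were read in the same way, from a list of 41 co-chaperones, organelle stress genes and HSF-1 regulators, of which 40 were in the annotation. A series-level peak was found at 26 of the 40 (65%, beside 24.7% of all genes) and one in the strongest 10% at 8 (20%, beside 3.81%). By role, 10 of 11 genes of the endoplasmic reticulum, 11 of 18 co-chaperones, 5 of 8 mitochondrial genes and none of 3 HSF-1 regulators had one. The thresholded list held 1, ubl-5 of the mitochondrial unfolded protein response (28.4, rank 248, 415 bp upstream), with 15.8 in replicate 1 and 17.8 in replicate 2. The next were pek-1, a stress kinase of the endoplasmic reticulum (24.6), the prohibitin phb-2 (24.3), the prefoldin subunit pfd-1 (23.7), the mitochondrial protease clpp-1 (22.9) and the Hsp90 of the endoplasmic reticulum, enpl-1 (21.6). All 6 had a peak in both replicates. Their series-level signals lie between those of dnj-20 and cct-1.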

How the data were processed

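ChIP-seq peak lists of eGFP-tagged NHR-11 from 2 biological replicates were used. Per the descriptions deposited beside them, the authors made 1 list per replicate and 1 from both together, each against a control alignment (not analysed here), and derived the thresholded list from these 3 by IDR. Signal is the peak caller's own value, as deposited. Aligner, caller and versions: not given in the sources used here. Lists on build ce10 were not used.

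Gene and transcript ends came from Ensembl release 115 (WBcel235) and sequence from RefSeq (ce11). 2 hsp-16 genes that share a symbol were told apart by RefSeq names at the same positions. Summits were assigned from 1000 bp upstream to 500 bp downstream of any transcript 5′ end, to every gene concerned, and mitochondrial peaks were left out of gene counts. Python 3.11.15, pandas 2.3.3 and numpy 2.4.6 were used, and the assignment was tested on simulated data. There was 1 group, so no test between groups was made.

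Named were hsp-1, hsf-1 and sip-1, members with a thresholded peak, the 20 members with the highest series-level signal, classed members with a peak in both replicates, the hsp-16 genes and hsp-70, pathway genes with a thresholded peak or the 6 highest signals, and genes sharing a named peak; others were named to account for all members. Classes follow general knowledge of these genes. Members and lists were chosen with earlier results of these data known. Alternatives covered windows, 5′ ends, assignment, list strictness, short RNA genes, classes and each replicate left out, with the other replicate's own list used alone.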

Additional observations from a re-analysis of the deposited data

How the results depend on the processing

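Of 65 alternative values, 50 kept their direction and stayed within the spread between replicates or, for counts, within 1.5 times the reported value. Another 11 moved and 4 reversed. That spread was taken from the values with 1 replicate left out, which are themselves among the 65. No member's strongest series-level peak lay near a short RNA gene, so leaving out such peaks could hardly change the values. The counts of 38 discussed below are scored as kept. The 50 is therefore a tally and does not measure robustness. The constitutive minus inducible share (10 points) reversed to -10 with the nearest 5′ end only, with the stricter lists (the strongest part of each) and with windows from 2000 bp upstream. It moved to 38.1 with hsp-4, hsp-6 and hsp-60 counted as constitutive. With 1 replicate left out, the other replicate's own list took the place of the series-level list. The difference then ran from 3.33 to 30. It was 2.27 with the dnj genes counted as constitutive (52.3% and 50%) and 20 with windows from 500 bp upstream to 100 bp downstream, both within the replicates' SD of 18.9. The ratio of hsp-1 to the next member (1.27) ran from 0.928 without replicate 2 to 1.53 without replicate 1, and its rank from 1 to 3. With the nearest 5′ end only, members with a peak fell to 18 in the series-level list, 6 in its strongest 10%, 18 in both replicates and 1 in the thresholded list (hsp-1). With the stricter lists, the strongest 50% of each, they were 5 in the strongest 10%, 18 in both replicates and 1 in the thresholded list. That 10% was taken from the cut list and holds fewer peaks than the 10% used elsewhere. Windows from 500 bp upstream to 100 bp downstream gave 17 in both replicates. These settings assign fewer peaks by construction, for all genes as for members. The share of all genes was not computed for them, so the counts do not show whether the excess of members held. Other causes were not tested. Without replicate 1 and without replicate 2, the other replicate's own list gave 38 and 38 members with any peak. Its strongest 10% gave 12 and 13. No IDR step is possible on 1 replicate, so its strongest peaks stood in for the thresholded list and gave 2 and 3. These lists reach more genes of any kind, 39.7% in replicate 2 and 40.4% in replicate 1 beside 24.7% in the series-level list. The counts of 38 therefore do not show how the series-level count would change. Distinct peaks, counted after seeing the data, were 28 and 2. No paired analysis was possible because both replicates form 1 group. Depth is unknown, so a missing peak does not show absence.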
